A study of Mus musculus with 12 samples.

Results

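The lateral plate and cardiac mesoderm genes Hand1, Hand2, Gata4, Isl1, Foxf1, Tbx20, Tbx2 and Pdgfra were followed in every RNA-seq library of WT and Meteor KO mouse embryonic stem cells (ESCs), before and during cardiac differentiation. These 8 genes, a list fixed by name and found by Ensembl identifier, stand among 46517 genes in the count files. The list follows known roles in early mesoderm and heart, and it was drawn up with earlier results of these libraries known, so that shares of the 8 genes set against all genes describe a chosen list. Both genotypes derive from the EomesEGFP reporter ESC line, of C57BL/6 background, so all cells carry a green fluorescent protein reporter at Eomes. Meteor is a transcribed enhancer upstream of Eomes, and the KO cells lack it after excision with a CRISPR-Cas9 nickase and picking of ESC clones. The labels do not say which KO clone gave which library. Day 0 cells were undifferentiated ESCs grown on mouse embryonic fibroblast feeders with LIF, and day 3 samples were embryoid bodies that had been started in hanging drops under cardiac differentiation conditions. Each of the 4 groups, WT and KO at days 0 and 3, has 3 libraries of poly(A) RNA.

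Lateral plate mesoderm leaves the primitive streak after nascent mesoderm has formed, and gives rise to the heart, the vessels, the blood, the limb buds and the body wall. Heart progenitors within it are set up by a network of transcription factors in which GATA, HAND, T-box and LIM-homeodomain proteins act on each other's enhancers, with BMP signals as a main inducer. Pdgfra encodes a receptor tyrosine kinase for PDGF and is an early surface marker of mesoderm on its way to the heart, although primitive endoderm and fibroblasts also carry it.

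Of the 12 libraries, WT day 3 replicate 3 stood apart from the other WT day 3 libraries in these genes. Its CPM values (the reads of a gene scaled by TMM to a library of 1000000) were more than 10 times the mean of replicates 1 and 2 for 6 of the 8 genes, against 169 of the 15673 genes tested (1.08%), and the median ratio over all tested genes was 0.997. Among the 6, Hand2 and Foxf1 exceeded 1 CPM, the threshold for testing, in this library alone. Their high ratios were thus built in and add no support to that count. Its 9 primitive streak genes were all below the mean of replicates 1 and 2, with a median ratio of 0.549. For T (Brachyury), the streak and nascent mesoderm factor, the 3 libraries gave 693, 613 and 270 CPM (269.5 before rounding), and for Mixl1, a streak homeobox gene, 191, 185 and 39.7 CPM. The tests of the 8 genes that use this library are therefore also given without it, as are the counts of the companion lists and the named companion genes whose call changed. Its depth of 19576631 reads on genes lay within the range of all libraries, 17455927 to 23910943, at which 3 reads correspond to 0.125 to 0.172 CPM. It also had the highest share of reads in no annotated feature (9.32%, from 6.14% in the lowest library) and the most genes with a read (22219), and the part of these in the results was not tested. The labels do not say whether replicates were separate cultures, and the p-values measure the spread between these libraries.

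The genes lie on 6 chromosomes of GRCm38. Hand1 is at chr11:57828705-57832818 on the minus strand, Hand2 at chr8:57320983-57324633 (plus), Gata4 at chr14:63198922-63271692 (minus), and Isl1 at chr13:116298281-116309689 (minus). Foxf1 is at chr8:121084386-121088144 (plus), Tbx20 at chr9:24718138-24774303 (minus), Tbx2 at chr11:85832551-85841948 (plus), and Pdgfra at chr5:75152292-75198215 (plus). All are protein coding. RefSeq promoter windows of GRCm38.p6, running from 250 bases before to 50 bases after the RefSeq start of the gene, were at hand for 4 of the 8. They are shown because the genes rose together in 1 library while their start regions differ in base composition. Each is written 5′ to 3′ on the gene's own strand, with GATA words (AGATAA or TGATAA, and the forms ending in G in place of the last A, on either strand) in capitals.
Hand2: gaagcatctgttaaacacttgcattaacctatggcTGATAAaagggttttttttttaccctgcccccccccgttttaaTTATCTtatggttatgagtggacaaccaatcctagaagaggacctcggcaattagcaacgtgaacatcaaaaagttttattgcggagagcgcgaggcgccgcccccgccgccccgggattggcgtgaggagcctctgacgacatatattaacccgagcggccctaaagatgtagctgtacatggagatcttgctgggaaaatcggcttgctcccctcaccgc
Isl1: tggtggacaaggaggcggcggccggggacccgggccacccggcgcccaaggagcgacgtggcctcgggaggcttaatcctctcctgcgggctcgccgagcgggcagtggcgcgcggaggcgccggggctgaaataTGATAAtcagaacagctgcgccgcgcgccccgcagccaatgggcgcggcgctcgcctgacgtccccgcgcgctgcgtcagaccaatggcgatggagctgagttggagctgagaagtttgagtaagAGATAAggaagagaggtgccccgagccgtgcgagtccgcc
Tbx20: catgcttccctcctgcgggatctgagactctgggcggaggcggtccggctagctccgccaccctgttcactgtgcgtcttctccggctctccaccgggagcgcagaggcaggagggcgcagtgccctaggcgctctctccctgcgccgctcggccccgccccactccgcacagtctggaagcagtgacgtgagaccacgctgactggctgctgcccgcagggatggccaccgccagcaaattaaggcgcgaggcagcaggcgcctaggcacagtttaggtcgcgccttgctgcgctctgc
Pdgfra: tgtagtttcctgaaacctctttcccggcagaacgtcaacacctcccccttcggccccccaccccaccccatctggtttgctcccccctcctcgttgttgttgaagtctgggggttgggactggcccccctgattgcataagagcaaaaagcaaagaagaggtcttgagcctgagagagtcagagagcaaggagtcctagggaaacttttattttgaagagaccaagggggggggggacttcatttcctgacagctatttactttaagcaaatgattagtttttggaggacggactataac
The windows are chr8:57320733-57321032 (plus) for Hand2, chr13:116309639-116309938 (minus) for Isl1, chr9:24774254-24774553 (minus) for Tbx20 and chr5:75152001-75152300 (plus) for Pdgfra. The RefSeq start that places a window can differ from the gene start given above, as it does for Pdgfra. The Hand2 window holds GATA words at positions -215 and -172, counted from the RefSeq start as 0, and the Isl1 window holds them at positions -115 and 10. Neither Tbx20 nor Pdgfra has such a word in its window, and 29.8% of all 32851 windows hold at least 1. T-box words (GGTGTGA, also with T as its sixth base, either strand) were in none of the 4 windows and in 5.53% of all windows. The word TATAAA was absent from the 4 as well and present in 13.6% of all. Tbx20 and Isl1 have GC-rich starts, with 68.3% and 69.0% G or C and 26 and 37 CpG dinucleotides, whereas Hand2 (50.3%, 17 CpG) and Pdgfra (51.0%, 5 CpG) are near the median window (52.7%, 7 CpG) in GC content. These word matches describe the sequence only.

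Among the HAND proteins, basic helix-loop-helix factors of the heart and lateral mesoderm, Hand1 was the gene with the highest level in WT day 3 replicate 3. Its CPM in WT replicates 1, 2 and 3 was 1.09, 0.679 and 1.80 at day 0, and 1.68, 1.25 and 105 at day 3. In the KO it was 0.280, 0.110 and 0.204 at day 0, and 0.05, 0.0569 and 0.0833 at day 3, which correspond to 1, 1 and 2 reads. Replicate 3 thus held 97.3% of the WT day 3 signal, and the KO libraries lay below every WT library of the same day.

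Hand2 had at most 4 reads in 11 of the 12 libraries. There were 1, 2 and 3 reads in WT at day 0, 0, 1 and 3 reads in KO at day 0, 2, 0 and 4 reads in KO at day 3, and 2 and 2 reads in WT day 3 replicates 1 and 2. In WT day 3 replicate 3 it had 492 reads, or 23.4 CPM. From the reads alone, this library was 247-fold above the other WT day 3 libraries together (95% counting interval 96.0 to 911, exact binomial). Intervals of this kind cover counting error only.

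Gata4, the zinc-finger factor needed for ventral fusion of the heart tube, was raised in every WT library of day 3. Its values were 1.80, 6.11 and 3.06 CPM (3.065 before rounding) in WT at day 0 and 15.3, 12.2 and 101 CPM at day 3. In KO cells they were 2.52, 5.07 and 3.06 CPM at day 0 and 1.60, 3.87 and 1.71 CPM at day 3. Day 3 WT libraries did not overlap with any other group, replicate 3 being 7.36 times the mean of the others.

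Isl1, the LIM-homeodomain factor of second heart field progenitors, was low outside WT day 3. WT libraries gave 0.273, 0.313 and 0.528 CPM at day 0 and 0.700, 0.963 and 15.7 CPM at day 3. KO libraries gave 0.112, 0.221 and 0.409 CPM at day 0 and 0.150, 0.171 and 0.291 CPM at day 3. All WT day 3 libraries lay above all others, although replicates 1 and 2 rest on 15 and 20 reads.

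Foxf1, a forkhead factor of lateral plate and splanchnic mesoderm, was measured at 0.164, 0.365 and 0.106 CPM in WT at day 0 and at 0.187, 0.770 and 24.3 CPM at day 3. The KO had 0.0560, 0.386 and 0.255 CPM at day 0 and 0, 0.171 and 0.291 CPM at day 3. Only WT day 3 replicate 3, with 509 reads, was far from the rest, the next highest library having 16 reads.

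The T-box genes were also high in that library. Tbx20, a cardiac T-box factor, stood at 2.35, 1.72 and 4.28 CPM in WT at day 0 and at 1.40, 2.94 and 56.9 CPM at day 3, and in KO at 1.85, 2.15 and 4.24 CPM at day 0 and 0.750, 1.02 and 2.04 CPM at day 3. WT day 3 replicate 1 lay below and replicate 2 within the range of WT at day 0. Tbx2, a T-box repressor of the non-chamber myocardium, stood at 0.874, 0.783 and 1.11 CPM in WT at day 0 and at 0.187, 0.241 and 15 CPM at day 3, and in KO at 0.392, 0.606 and 0.664 CPM at day 0 and 0.150, 0.228 and 0.291 CPM at day 3. WT day 3 replicates 1 and 2 were below every WT day 0 library and within the KO range at day 3, and replicate 3 was far above all libraries.

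Pdgfra was the member on which the WT day 3 libraries came closest to each other. WT libraries had 3.06, 6.63 and 4.02 CPM at day 0 and 37.1, 37.9 and 81.4 CPM at day 3. KO libraries had 3.25, 8.93 and 5.41 CPM at day 0 and 2.75, 3.64 and 3.29 CPM at day 3. WT day 3 was separate from all other groups, and replicate 3 held 52.0% of its signal, 2.17 times the mean of the others.

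**Figure D1:**
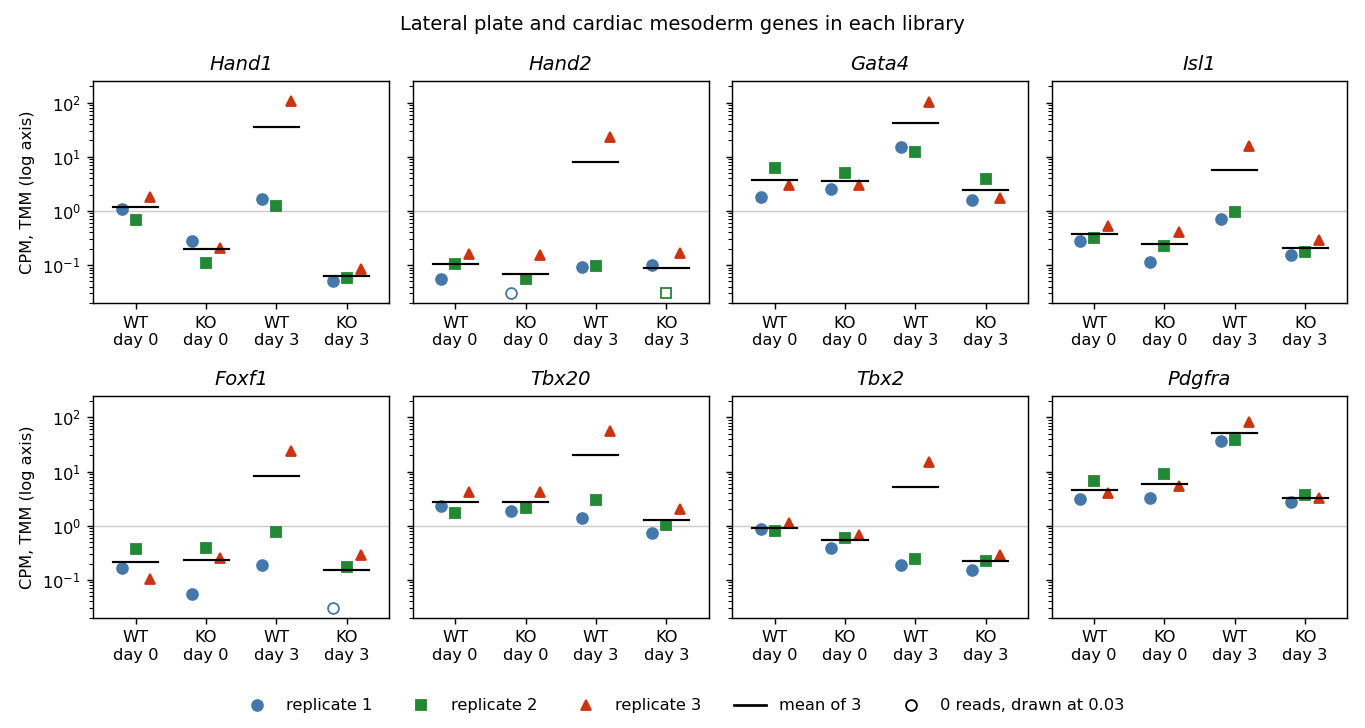
Level of each of the 8 genes in each library, as TMM-scaled CPM on a log axis, with replicates as symbols and the mean of the 3 libraries as a line; libraries with 0 reads are drawn open at 0.03. WT day 3 replicate 3 (triangle) is the highest library in all 8 panels, and Gata4 and Pdgfra are also raised in WT day 3 replicates 1 and 2.

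Compared per length of exon, the levels had a different order in the WT day 3 libraries. In replicate 3, Hand1 led with 52.6 RPKM (CPM per kilobase of merged exons), then came Gata4 with 25.9, Foxf1 with 10 and Hand2 with 9.97, Pdgfra with 8.12, Tbx20 with 4.74, Tbx2 with 4.14 and Isl1 with 3.97 RPKM. From this single library, no spread between replicates is available to separate Foxf1 from Hand2 or Tbx2 from Isl1, whose levels were nearly equal. In replicates 1 and 2 Gata4 (3.92 and 3.12 RPKM) and Pdgfra (3.70 and 3.78 RPKM) led, Hand1 had 0.841 and 0.627 RPKM, and the other 5 were between 0.0397 and 0.319 RPKM. In the KO at day 3 the group means were 0.613 ± 0.328 RPKM (SD, n = 3) for Gata4 and 0.322 ± 0.0447 RPKM for Pdgfra, a difference within the spread of Gata4, and the other 6 were at or below 0.106 RPKM. Summed over the 8 genes, WT day 3 replicates 1, 2 and 3 had 56.7, 56.3 and 423 CPM, against 5.55 to 9.16 CPM in KO day 3 libraries and 8.46 to 17.5 CPM at day 0. In these bulk samples, fewer cells expressing a gene and less RNA per cell cannot be told apart.

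The first comparison asks which of the genes rose when WT cells differentiated. Across all 12 libraries, edgeR's quasi-likelihood test with the replicate number as a block called 6 of the 8 higher at day 3 than at day 0, against 30.7% of all tested genes called higher in that direction. The receptor gene Pdgfra rose by a log2 fold change of 3.54 ± 0.34 (SE, adjusted p = 2.83e-05), and Gata4 by 3.40 ± 0.74 (adjusted p = 0.00323). Hand2 (5.23 ± 1.38), Foxf1 (4.12 ± 1.31), Hand1 (3.15 ± 1.10) and Isl1 (3.14 ± 0.74) were called as well, with adjusted p between 0.0049 and 0.0332. Tbx20 (1.83 ± 0.80, adjusted p = 0.0743) and Tbx2 (1.23 ± 1.13, adjusted p = 0.375) were not called. The median log2 change was 3.28 over the 8 genes and 0.07 over all tested genes.

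With WT day 3 replicate 3 left out, Hand2 and Foxf1 no longer exceeded 1 CPM in any library and were not tested, and 3 of the other 6 were called higher, against 25.7% of all genes. These were Pdgfra (3.07 ± 0.29, adjusted p = 5.28e-05), Gata4 (1.97 ± 0.39, adjusted p = 0.00281) and Isl1 (1.5 ± 0.39, adjusted p = 0.011). Hand1 (0.59 ± 0.35, adjusted p = 0.179) and Tbx20 (0.02 ± 0.33) were not called, and Tbx2 turned to lower, at -1.96 ± 0.43 (adjusted p = 0.00452), where 25.6% of all genes were called lower. Before TMM scaling, Isl1 exceeded 1 CPM only in WT day 3 libraries, and Hand2 and Foxf1 only in replicate 3, so that their passing the filter already required a high value there. Outside WT day 3 replicate 3, Tbx2 exceeded it only in WT day 0 replicate 3, with 21 reads. Its test without WT day 3 replicate 3 thus required a high day 0 value, and its call as lower adds no support. Leaving out WT day 0 replicate 3 in place of WT day 3 replicate 3 reduced the calls to Gata4 and Pdgfra. Primitive streak genes summed to 169, 112 and 275 CPM in WT day 0 replicates 1, 2 and 3. T had 4.64, 6.42 and 77.4 CPM there, whereas Eomes and Nodal were not highest in replicate 3. The part of this in the results was not tested.

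The fitted changes of genes that rest on 1 library also depend on the block, which is shared by both days. The ratio of the WT group means was larger for these genes, at 4.92 on the log2 scale for Hand1, 6.22 for Hand2, 5.31 for Foxf1, 3.96 for Isl1, 2.87 for Tbx20 and 2.48 for Tbx2, and nearly the same as the fit for Gata4 (3.55) and Pdgfra (3.51). Without a block, 7 of 8 were called higher, Tbx20 being added, and the share of all genes called in that fit is not given here.

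In Meteor KO cells none of the genes was called between day 0 and day 3 by edgeR, where 56.6% of all tested genes changed in either direction. By an unadjusted p under 0.05 there was 1, Pdgfra, whose KO libraries held 326 reads in total at day 0 and 198 at day 3. DESeq2 called Pdgfra lower and limma-voom none. With the replicate block set within each day, 4 were called lower (Hand1, Foxf1, Tbx2 and Pdgfra), and the share of all genes called in that fit is not given here. This form of the block leaves the shared spread between same-day replicates out of a comparison of days. The KO libraries of the 2 days did not overlap for Hand1 (4 reads at day 3 and 11 at day 0) and Tbx2 (14 and 31 reads), both lower at day 3, where 30.1% of all genes were lower without overlap. Those of Foxf1 overlapped, with 10 reads at day 3 and 13 at day 0 (a 1.37-fold ratio, counting interval 0.555 to 3.49). The median log2 change over the 8 genes was -0.82.

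At day 3, the question is what the loss of Meteor did to these genes, and 7 of the 8 were lower in KO than in WT, against 16.7% of all tested genes. Pdgfra fell by 4.0 ± 0.35 on the log2 scale (adjusted p = 8.81e-05), with libraries that did not overlap and lower values in 3 of 3 pairs of the same replicate number. Gata4 (-3.98 ± 0.76) and Isl1 (-4.14 ± 0.80) fell to a like extent, and Hand1 (-8.25 ± 1.56) fell further, with adjusted p of 0.00389, 0.00397 and 0.0036. Hand2 (-5.67 ± 1.38), Foxf1 (-5.05 ± 1.31) and Tbx20 (-3.09 ± 0.85) were called with adjusted p of 0.0121, 0.0163 and 0.021, although their WT and KO ranges overlapped. Hand2 and Foxf1 had passed the filter only through WT day 3 replicate 3, and Isl1 only through WT day 3 libraries. This is the group in which the genes are high, so their calls add no support to the count. The lack of overlap of Isl1, given next, adds none either. Libraries without overlap were found for Hand1, Gata4, Isl1 and Pdgfra, 4 of 8, and for 23.0% of all tested genes in that direction. Tbx2 (-3.61 ± 1.3, adjusted p = 0.0587) was not called with the block shared by the days. It was lower in 3 of 3 pairs, with 3, 4 and 7 reads in KO against 4, 5 and 315 in WT, so that only replicate 3 carried the difference. With the replicate block within each day it was called (-4.01 ± 0.92, adjusted p = 0.00643), which made all 8 lower. The share of all genes called lower with that block is not given here. In reads, Hand1 had 4 in the KO libraries of day 3 together and 2267 in the WT ones, a 581-fold ratio with a counting interval of 227 to 2134.

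Without WT day 3 replicate 3, 5 of the 6 genes tested were still called lower in KO at day 3, against 10.9% of all genes. The changes were smaller, with Hand1 at -4.70 ± 0.49 (adjusted p = 0.000344), Pdgfra at -3.53 ± 0.30 (adjusted p = 0.00014), Gata4 at -2.58 ± 0.40 (adjusted p = 0.00214), Isl1 at -2.35 ± 0.42 (adjusted p = 0.00448) and Tbx20 at -1.18 ± 0.34 (adjusted p = 0.0358). Tbx2 was at -0.08 ± 0.52. The libraries of Tbx20 overlapped in that fit, with 91 reads in WT replicates 1 and 2 together and 82 in the KO libraries of day 3. Isl1 entered that fit only through a WT day 3 library, so its call adds no support to this count. Hand1 still had 62 reads in WT replicates 1 and 2 against the 4 in the KO, a 23.6-fold ratio (8.78 to 89.5). Hand2 and Foxf1, removed by the filter of 1 CPM, were not tested in that fit, and had 4 and 20 reads in WT replicates 1 and 2 together against 6 and 10 in the KO libraries of day 3. Leaving out KO day 3 replicate 3 in turn left only Gata4 and Pdgfra called.

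In undifferentiated ESCs no gene of the 8 was called between KO and WT by edgeR, limma-voom or DESeq2, none had an unadjusted p under 0.05 in edgeR, and 20.4% of all tested genes were called in either direction. Hand1 was nonetheless lower in KO in 3 of 3 pairs, without overlap, with 11 reads in the KO libraries and 67 in the WT ones (a 6.13-fold ratio, counting interval 3.21 to 12.9). Its fitted change was -3.23 ± 1.59 (adjusted p = 0.185) with the block shared by the days, and -2.55 ± 0.53 (adjusted p = 0.00553) with the replicate block within each day, which called it. The libraries of Tbx2 were also without overlap (31 and 52 reads, -0.84 ± 1.19, adjusted p = 0.671). Over all genes, 16.8% were higher and 17.4% lower without overlap in this comparison.

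The interaction compares the day 3 response of KO with that of WT in 1 test. It was called for Pdgfra (-4.34 ± 0.48, adjusted p = 0.000789) and Gata4 (-3.99 ± 1.04, adjusted p = 0.0291), 2 of 8, against 7.34% of all genes called in that direction. The other 6 had estimates from -2.76 to -5.02 with standard errors from 1.16 to 2.64. With the replicate block within each day, which matched the way same-numbered WT and KO libraries deviated together, 7 of 8 were called, Tbx2 being the exception. The share of all genes called with that block is not given here, so this count cannot be set against it. Hand2, Foxf1 and Isl1, which passed the filter only through WT day 3 libraries, are among the 7. Without WT day 3 replicate 3, Pdgfra (-3.87 ± 0.39) and Gata4 (-2.59 ± 0.54) were again the genes called, against 5.37% of all genes, and Tbx2 turned to 0.66 ± 0.60.

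**Figure D2:**
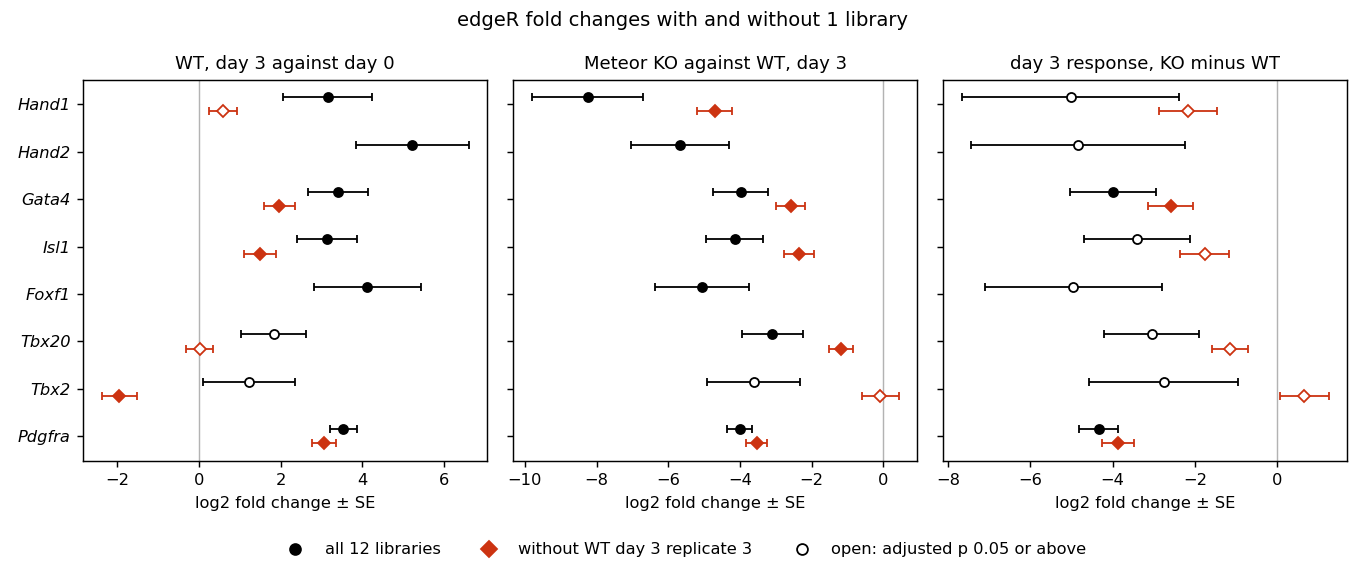
Log2 fold changes from edgeR with their standard errors for the 8 genes in 3 comparisons, with all 12 libraries (circles) and without WT day 3 replicate 3 (diamonds); filled symbols have an adjusted p under 0.05 and missing diamonds were not tested. Pdgfra moves least between the 2 fits, from 3.54 to 3.07 in WT and from -4.0 to -3.53 in KO against WT, and Tbx2 crosses 0 in WT.

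The 8 genes varied together across the 12 libraries, mostly through WT day 3 replicate 3. Pearson's r of log2(CPM + 1) over the 12 libraries was 0.933 to 0.986 between any pair of Hand1, Hand2, Isl1, Foxf1, Tbx20 and Tbx2, and 0.942 between Gata4 and Pdgfra. Between Pdgfra and those 6 it was 0.554 to 0.772. These values describe libraries that share groups and, for 6 genes, 1 high point. The genes most like each member are named by the same measure. Gata6, a GATA factor of cardiac mesoderm and endoderm, followed Pdgfra most closely (r = 0.991), with 30.0, 29.4 and 63.4 CPM in the WT day 3 libraries, and then came Cdh13 (0.987) and Mgat1 (0.978). Slc35g2 (0.969), Wnt2 (0.966) and Bace2 (0.964) were nearest to Gata4. Isl1 was nearest to Fli1, an ETS factor of endothelial and blood cells (r = 0.994, with 0.560, 1.2 and 11.8 CPM in WT day 3), then to Kcnk16 (0.991) and Igf2os (0.990).

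Hand1 was followed by Hapln1 (0.986), which encodes a link protein of the hyaluronan matrix and had 1.21, 0.674 and 42.0 CPM in WT day 3, by Trpc6 (0.979) and by Grap (0.977). Hand2 was nearest to Gm5771, its antisense neighbour Hand2os1 and Samsn1 (each 0.998), and Foxf1 to Prss1 (0.994), Icam2 (0.994) and Fendrr (0.993). Tbx20 was nearest to Hoxa13 (0.973), Hoxb3 (0.972) and Gm42498 (0.971), and Tbx2 to Abi3 (0.995), Hoxb3 (0.982) and Tnnt3 (0.982). For the mean profile of the 8, the 8 nearest genes were Fli1, Hapln1, Igf2os, Kcnk16, Gp1ba, Ptprb, Pilrb1 and Trpc6, with r from 0.987 to 0.981. All 8 were highest in WT day 3 replicate 3 among the WT day 3 libraries.

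Long noncoding RNAs that start beside 3 of the genes on the opposite strand had nearly all their reads in the same library. Hand2os1, which starts 3250 bases from Hand2 and shares 461 exon bases with it, had 76 reads in WT day 3 replicate 3 and 2 in the other 11 libraries. Fendrr, 1276 bases from the Foxf1 start and without shared exon bases, had 123 reads there and 6 elsewhere. For 2610027K06Rik, 328 bases from the Tbx2 start, the numbers were 11 and 1. Whether the counting used strand is not stated, so that reads of Hand2 and Hand2os1 in shared bases cannot be told apart. The same holds for the exon bases that Foxf1 shares with 1 and Pdgfra with 2 opposite-strand genes.

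Among the factors that act before or beside these genes, a list of 19 heart field transcription factors had 17 tested, of which 8 were higher and 3 lower in WT at day 3, and 7 lower and 1 higher in KO against WT at day 3. For lists, the shares called lower in the first comparison and higher in the other over all genes were 25.5% and 14.3%. List genes that exceeded 1 CPM only in WT day 3 libraries, such as Mesp1, were tested through the group where they are high. Their calls add no support to the list counts. Mesp1, which marks the earliest cardiac mesoderm, was even in WT day 3, at 21.0, 28.1 and 28.5 CPM, and rose by 6.55 ± 0.79 (adjusted p = 0.000103). At day 3 it fell by 8.29 ± 0.92 in KO (adjusted p = 0.000247). Gata6 rose by 3.95 ± 0.33 and Mef2c, a MADS-box factor of heart muscle, by 2.4 ± 0.54 (2.10, 2.98 and 8.62 CPM at day 3). Tbx3 fell by 2.80 ± 0.68, with 6.39, 9.10 and 71.6 CPM at day 3. Its difference between KO and WT at day 3 was -0.92 ± 0.68 (adjusted p = 0.337) with all libraries and 0.72 ± 0.21 (adjusted p = 0.0362) without WT day 3 replicate 3. Nkx2-5, the homeobox gene of cardiac progenitors, had 0.0466, 0.0963 and 1.00 CPM in WT day 3 and 0 in all KO libraries of that day, and its change in WT was not called (-1.63 ± 0.64, adjusted p = 0.0577). When WT day 3 replicate 3 was left out, Nkx2-5 was called lower in WT at day 3 (-3.21 ± 0.73, adjusted p = 0.00856), and its call as lower in KO against WT (-5.82 ± 1.46, adjusted p = 0.019) was lost (-4.14 ± 1.55, adjusted p = 0.0979). In that fit Nkx2-5 exceeded 1 CPM only in WT day 0 replicate 3 (1.90 CPM), so its call as lower in WT adds no support. The list then gave 7 higher and 5 lower of 14 in WT, and 6 lower and 2 higher in KO against WT.

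Of 17 lateral plate, limb and body wall mesenchyme factors, 15 were tested, with 4 higher and 2 lower in WT at day 3 and with 10 lower and 2 higher in KO against WT. Of the 10 lower, Osr1 and Hlx passed the filter of 1 CPM only through WT day 3 replicate 3, so their calls add no support to that count. Msx1, a BMP-induced homeobox gene, rose by 3.09 ± 0.44 (17.2, 12.2 and 46.9 CPM at day 3) and Snai1, which drives epithelial to mesenchymal transition, by 2.25 ± 0.20 (23.9, 25.4 and 28.3 CPM). Bnc2 and Wt1 fell by 2.20 ± 0.25 and 2.15 ± 0.31. In the KO at day 3, Msx1 fell by 3.67 ± 0.47 and Snai1 by 3.36 ± 0.21, and Wt1 was higher by 3.01 ± 0.32. Leaving out the same library turned the counts to 3 higher and 5 lower of 13 in WT, and to 7 lower and 2 higher in KO against WT.

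BMP ligands and targets gave 4 higher and 0 lower of 10 in WT at day 3, and 6 lower of 10 in KO against WT. Bmp5 had 0.886, 0.193 and 22.1 CPM in WT day 3 and at most 0.0522 CPM in WT at day 0. It exceeded 1 CPM only in WT day 3 replicate 3, so its calls as higher in WT and lower in KO add no support to these counts. Bmp2 had 8.54, 9.0 and 54.0 CPM and rose by 3.77 ± 0.51, Bmp7 by 2.68 ± 0.40 and the inhibitory Smad6 by 1.52 ± 0.41. Bmp4 had 13.3, 14.1 and 22.3 CPM (22.25 before rounding) in WT at day 0 and 4.34, 7.89 and 55.1 CPM at day 3, with a fitted change of -0.01 ± 0.55 over all libraries. It was called lower at day 3 once WT day 3 replicate 3 was left out (-1.28 ± 0.24, adjusted p = 0.00213). In that fit Bmp5 was not tested, the BMP list gave 3 higher and 2 lower of 9 in WT, and the count lower in KO became 3 of 9, Smad6 (-1.3 ± 0.40, adjusted p = 0.0339) being lost at -0.57 ± 0.26. The list of PDGF ligands and receptors other than Pdgfra had 5 genes, with 0 higher and 2 lower in WT at day 3 (Pdgfc, -3.58 ± 0.20, and Pdgfa, -0.77 ± 0.14) and 2 lower in KO against WT. The WT counts were the same without that library, and Pdgfrb (-1.04 ± 0.30, adjusted p = 0.025) was no longer called in KO against WT (-0.82 ± 0.33, adjusted p = 0.107), leaving 1 lower of 5. Pdgfd (0.98 ± 0.48) and Pdgfrb (0.42 ± 0.30) were not called in WT.

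Of 17 cardiac muscle genes, 15 were tested, and 2 were higher and 5 lower in WT at day 3. Myl7, the atrial myosin light chain and an early sign of cardiac muscle, rose by 6.50 ± 0.64, with 8.26, 7.80 and 46.4 CPM at day 3, and fell by 6.34 ± 0.62 in KO against WT. Ttn (-3.32 ± 0.44) and Mybpc3 (-2.83 ± 0.55) fell in WT and Tnni1 (-1.45 ± 0.59, adjusted p = 0.0597) was not called. In KO against WT at day 3, 3 of the 15 were lower and 0 higher, with a median log2 change of -0.51. Without WT day 3 replicate 3, 1 was higher and 8 were lower of 14 in WT, Tnni1 being called lower (-2.4 ± 0.67, adjusted p = 0.0142). In KO against WT that fit gave 2 lower and 2 higher of 14, the median turned to 0.27, and Mybpc3 (-3.26 ± 1.06, adjusted p = 0.0402) was not called (-2.54 ± 1.24, adjusted p = 0.173). Primitive streak genes, by contrast, were higher in WT at day 3 for 8 of 9, with 1 lower, and lower in KO for 8 of 9. Lhx1, Mixl1, Gsc and T rose by 6.13 ± 0.75, 5.70 ± 0.85, 4.97 ± 0.79 and 4.79 ± 1.10, and Eomes by 2.97 ± 0.42 (471, 480 and 261 CPM at day 3).

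**Figure D3:**
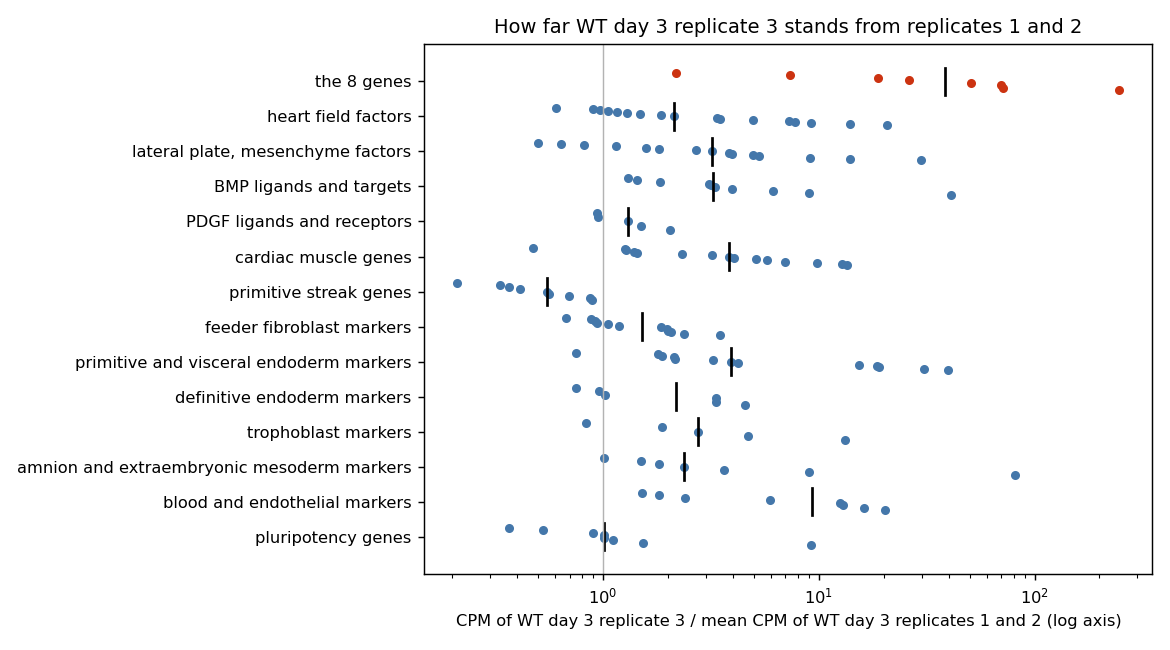
Ratio of the CPM of WT day 3 replicate 3 to the mean CPM of replicates 1 and 2, on a log axis, for each tested gene of each list (points), with the list median as a bar. The 8 genes have a median ratio of 38.5, primitive streak genes 0.549 and blood and endothelial markers 9.27. Hand2 and Foxf1 were tested only through replicate 3. The pluripotency genes have a median of 1.01, but run from 0.365 for Nanog to 9.245 for Tbx3, with 3 of 8 below 1.

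Markers of other cells also differed in the library that carried the 8 genes, and their part in the results was not tested. The 8 blood and endothelial markers summed to 58.4, 56.6 and 414 CPM in WT day 3 replicates 1, 2 and 3, to 70.1 to 109 CPM in WT at day 0 and to 21.6 to 26.4 CPM in KO at day 3. Of these, 5 were higher and 1 lower in WT at day 3 and 5 lower in KO. Kdr, the receptor of lateral mesoderm and endothelium, had 21.8, 19.2 and 258 CPM, with a rise of 3.18 ± 0.58, and Cdh5 and Tal1 had 39.4 and 39.7 CPM in replicate 3. Lmo2 rose by 3.29 ± 0.33. The 13 primitive and visceral endoderm markers summed to 274, 271 and 675 CPM, with 7 higher and 2 lower in WT and 2 lower in KO at day 3. Ttr had 0.140, 0.433 and 11.3 CPM in the 3 libraries, Afp 0.373, 2.21 and 2.33 CPM, and Foxa2, which definitive endoderm shares, 88.8, 59.1 and 55.6 CPM. Over the 13 markers the median ratio of replicate 3 to the mean of replicates 1 and 2 was 3.93 (3.925 before rounding), and 5 were above 10, namely Ttr, Apob (2.75, 10.54 and 102 CPM), Sox7 (0.280, 1.11 and 12.9 CPM), Hnf4a (0.420, 0.818 and 11.7 CPM) and Apoa1 (0.233, 0.337 and 8.77 CPM), of which the last 4 were chosen after their values were seen. Sparc, which many mesenchymal cells also express, made up 118, 125 and 263 CPM of the sums. Gata4 and Pdgfra, genes that primitive endoderm also expresses, were highest in the same library.

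The 7 amnion and extraembryonic mesoderm markers summed to 23.7, 34.3 and 132 CPM, with 3 higher and 2 lower in WT and 1 lower in KO at day 3. Tdo2 had 0, 0.0481 and 1.95 CPM in WT day 3 and Ets1 14.5, 21.2 and 65.1 CPM, whereas Itga4 rose by 1.87 ± 0.36 and Vcam1 fell by 2.32 ± 0.39. Tdo2, the marker called lower in KO and also called higher in WT, exceeded 1 CPM only in WT day 3 replicate 3. Its calls therefore add no support to these counts. The 9 trophoblast markers, of which Tpbpa, Prl3d1 and Prl2c2 had no read in WT day 3 replicate 3, summed to 14.9, 24.5 and 43.9 CPM, below the 58.0 to 98.7 CPM of WT at day 0, and 5 were tested. Cdx2 (4.38, 3.66 and 11.1 CPM) was called higher in WT, Tfap2c and Plet1 lower and Gata3 (0.840, 0.674 and 9.96 CPM) not, and 3 of the 5 were lower in KO. The 6 definitive endoderm markers summed to 1242, 966 and 1136 CPM, with 5 higher in WT and 5 lower in KO, led by Cer1 (9.66 ± 0.37), Foxa2 (5.95 ± 0.38), Sox17 (4.90 ± 0.58) and Cxcr4 (3.41 ± 0.33). Trh made up 1004, 831 and 882 CPM of these sums. Sox17 (14.8, 11.2 and 43.2 CPM), Cxcr4 (21.45, 16.7 and 63.6 CPM) and Foxa1 (2.80, 2.17 and 11.3 CPM) were highest in replicate 3. Over the 6, the median ratio of replicate 3 to the mean of replicates 1 and 2 was 2.18, and 2 were below 1.

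Day 0 cells were grown on feeder fibroblasts, a cell type that expresses Pdgfra. The 13 feeder markers summed to 134, 365 and 218 CPM in WT day 0 replicates 1, 2 and 3 and to 188, 495 and 308 CPM in KO. Gata4 and Pdgfra were highest in the same replicate 2 of both genotypes at day 0. At day 3 the markers summed to 78.8, 90.6 and 162 CPM in WT and to 56.8, 103 and 108 CPM in KO, and 6 of 12 tested were lower in WT at day 3, among them Col1a1 (-2.53 ± 0.37), Col1a2 (-1.47 ± 0.35), S100a4 (-3.33 ± 0.67) and Loxl1 (-1.69 ± 0.31). In KO against WT at day 3, 4 were lower and 4 higher. The part of feeder RNA in the day 0 levels was not tested. Pluripotency genes gave 7 of 8 lower in WT at day 3, led by Klf4 (-5.06 ± 0.32), Zfp42 (-4.44 ± 0.16), Esrrb (-3.82 ± 0.19) and Dppa3 (-3.29 ± 0.26), and summed to 1118, 1130 and 670 CPM in the WT day 3 libraries, against 2765 to 4164 CPM in the day 0 libraries of both genotypes.

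The counts of these marker lists also moved when WT day 3 replicate 3 was left out, where 25.7% of all genes were called higher and 25.6% lower in WT, and 10.9% lower and 11.3% higher in KO against WT. In WT between the days, blood and endothelial markers gave 3 higher and 3 lower of 8, Tal1 (2.38 ± 0.77 with all libraries and 0.78 ± 0.41 without) and Cdh5 (2.66 ± 0.88 and 0.84 ± 0.41) being called only with the library. Primitive and visceral endoderm markers gave 4 higher and 3 lower of 13, amnion markers 2 higher and 3 lower of 6 with Tdo2 not tested, and definitive endoderm markers 4 higher of 6. The counts in WT stayed at 8 higher and 1 lower for streak genes, 6 lower for feeder markers, 1 higher and 2 lower for trophoblast markers and 7 lower for pluripotency genes.

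In KO against WT at day 3 without that library, 4 of 8 blood and endothelial markers were lower, and 2 of 13 primitive and visceral endoderm markers were lower and 3 higher. No amnion marker of 6 was called by edgeR. Trophoblast markers gave 3 lower and 1 higher of 5, the one added being Plet1 (1.26 ± 0.31, adjusted p = 0.0185, against 0.03 ± 0.54 with all libraries). Feeder markers gave 2 lower and 3 higher of 12, and pluripotency genes 2 lower and 4 higher of 8, from 1 and 3 with all libraries. Streak genes were lower for 9 of 9, and definitive endoderm markers for 5 of 6 as before.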

How the data were processed

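Poly(A) RNA of 12 libraries (3 each of WT and Meteor KO at days 0 and 3) was sequenced as single reads. Per the study's methods, the authors trimmed reads with Cutadapt (version 1.3 per their processing notes), aligned them with STAR 2.4.2a to the mouse genome of build GRCm38 and counted them per gene with htseq-count (HTSeq 0.6.1), so the deposited values are raw counts per Ensembl gene. Rows that name no gene (36.5% to 44.1% of reads not uniquely aligned, 6.14% to 9.32% in no feature, 0.70% to 0.75% ambiguous) were left out of library sizes, which ranged from 17455927 to 23910943 reads. Reads shared by near-identical genes are lost in this way.

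Of 46517 genes, 15673 exceeded 1 CPM in some library and entered 1 edgeR 4.0.16 quasi-likelihood fit (glmQLFit, glmQLFTest, TMM, R 4.3.3) with 4 groups and the replicate number as a block, since the methods name a batch factor without defining it. Benjamini-Hochberg adjustment ran over all tested genes, and calls were made at an adjusted p of 0.05. The fit was tested on simulated data. CPM uses TMM-scaled library sizes, and RPKM uses merged GENCODE M21 exon lengths. Counting intervals are exact binomial at 95%.

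The replicate numbers pair libraries within a day, since deviations of same-numbered WT and KO libraries from their group means correlated at 0.315 to 0.712 in 6 of 6 pairs over 12129 genes. Between days they correlated at -0.23 to 0.077. No pair of replicates differed by as little as sampling noise. Alternatives were other blocks, limma-voom 3.58.1, DESeq2 1.42.0, other normalization and filters, fewer samples and each library left out. 2 further alternatives, all replicate 3 libraries left out and robust dispersion, were chosen after seeing the data.

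The 8 genes and all companion lists were chosen with earlier results of these data known. All 8 are described, and from each list up to 4 genes with the largest change in WT between the days are named, plus Mesp1, T, Eomes, Bmp4 and Nkx2-5. Likeness is Pearson's r of log2(CPM + 1), 3 genes per member and 8 for the mean profile. Promoter windows come from RefSeq (4 of 8 genes matched).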

Additional observations from a re-analysis of the deposited data

Results flagged for a closer look

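Gata4 and Pdgfra were the members whose day 3 response differed between the genotypes by the interaction test of edgeR with all 12 libraries and the replicate block shared by the days. The response in Meteor KO minus that in WT was -3.99 on the log2 scale for Gata4 (SE 1.04, adjusted p = 0.0291) and -4.34 for Pdgfra (SE 0.48, adjusted p = 0.000789). Both genes were above their day 0 level in 3 of 3 WT libraries at day 3 and within the day 0 range or below it in the KO. Over the alternatives, the call for Pdgfra was made each time, and that for Gata4 was lost under limma-voom (-3.74) and when any of 6 single libraries, or all of replicate 3, was left out. With the replicate block within each day, the arrangement in which same-numbered libraries deviated together, 7 of 8 were called, with Hand1 (-6.52), Hand2 (-5.67), Foxf1 (-5.71), Isl1 (-3.91) and Tbx20 (-3.08) added and Tbx2 (-3.28, adjusted p = 0.0625) not called. Of those added, Hand2, Foxf1 and Isl1 passed the filter only through WT day 3 libraries. The share of all genes called with that block is not given here.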

How the results depend on the processing

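Counts of members called were stable between WT days (6 of 8) and for KO against WT at day 3 (7 of 8) under every alternative of block, tool, normalization, filter and threshold, within 1.5 times, while leaving out 1 library at a time gave 2 to 7 and 2 to 8. Without a replicate block these were 7 and 8, and with the replicate 3 libraries of all groups left out 3 and 4 of the 5 tested. For KO between days (0), the replicate block within each day gave 4, DESeq2 1, no filter 1 and a fit of only the groups compared 1 (of 3 tested), and 0 in each case of a library left out. For KO against WT at day 0 (0), the replicate block within each day gave 1 and a fit of only the groups compared 1 (of 5 tested), with 0 to 1 on leaving out a library. The interaction (2) gave 7 with the replicate block within each day, 1 with limma-voom, 4 with DESeq2 and 1 to 4 on leaving out a library. On leaving out single libraries the log2 change of Tbx2 in WT between days ranged from -1.96 (without WT day 3 replicate 3) to 2.16 and in the interaction from -3.59 to 0.66 (without the same library), that of Hand1 between KO days from -4.42 to 0.42 (without KO day 3 replicate 3), and that of Tbx2 at day 0 from -1.75 to 0.04 (without KO day 0 replicate 3). Apart from the lower number of samples, the cause was not tested. Shares of all genes called under the alternatives of block, tool, normalization and filter are not given here, so those counts are not set against all genes. Members with 3 reads or fewer in a library (Hand2 in most libraries, Hand1 in KO at day 3) lie at the limit of this depth. In KO day 3 replicates 1, 2 and 3 they were 5, 4 and 1 of the 8, with Isl1, Foxf1 and Tbx2 among them.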

Other observations

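Replicate 3 was the highest library for all 8 genes in WT at day 3, where 35.5% of tested genes were highest in replicate 3, and for 6 of 8 in KO at day 3 (28.2% of tested genes), 5 of 8 in WT at day 0 (32.7%) and 4 of 8 in KO at day 0 (32.6%). Hand2 and Foxf1 were tested only through WT day 3 replicate 3, so their rank there was fixed in advance. In KO day 3 replicate 3, Hand1, Hand2, Isl1, Foxf1 and Tbx2 had 2, 4, 7, 7 and 7 reads, so their ranks rest on few reads. Between KO days, where 56.6% of all tested genes were called in either direction, 6 of 17 tested heart field factors were lower and 4 higher at day 3, of 15 lateral plate and mesenchyme factors 8 were lower and 2 higher, and of 15 cardiac muscle genes 5 were lower and 4 higher, shares near that of all genes. Actc1, cardiac actin, which was chosen after its values were seen, was higher at day 3 than at day 0 in KO by 2.02 ± 0.69 (edgeR, adjusted p = 0.0291), and at day 3 it was lower in KO than in WT (-2.06 ± 0.57, adjusted p = 0.0213). At day 0 it was already lower in KO (-4.16 ± 0.67, edgeR, adjusted p = 0.00257). The day 0 libraries had 0.897, 0.110 and 0.562 CPM in KO and 6.28, 5.17 and 18.2 CPM in WT.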
